A study of Mus musculus with 4 samples.

Results

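The aminoacyl-tRNA synthetase genes were examined for peaks of methylated Pontin in wild-type mouse embryonic fibroblasts (MEFs) under glucose starvation. They are the protein-coding genes of the mouse annotation GENCODE vM21 whose symbol is an amino acid letter followed by ars, ars1 or ars2, together with Farsa, Farsb, Eprs and Tarsl2. This gave 38 genes of 21938 protein-coding genes, of which 19 encode enzymes of the cytoplasm, 17 encode enzymes of the mitochondria, and 2, Gars and Kars, encode enzymes that work in both. A gene was counted as having a peak when the centre of a peak lay within 2.5 kb of any of its transcription start sites (TSSs). The study made 4 libraries by chromatin immunoprecipitation with sequencing (ChIP-seq), namely the ChIP with an antibody against arginine-methylated Pontin and the input, which was not immunoprecipitated, each in normal media and in glucose starvation media, with 1 library each. The values given here come from a list of 4311 peaks, called by the authors for the starved cells against an input. Neither the ChIP of cells in normal media nor any change on starvation was analysed here. The text of the study describes the fibroblasts as wild type, while the labels name no genotype and no duration of starvation. A peak list carries no expression values, so the labelled cell type could not be checked against fibroblast markers.

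Aminoacyl-tRNA synthetases join each amino acid to its tRNA, the step that sets which amino acid a codon is read as. The cytoplasm and the mitochondria use largely separate enzymes, all encoded in the nucleus, and several of the cytoplasmic enzymes are held in a multisynthetase complex with scaffold proteins. Synthetases fall into the structural classes I and II. Many genes of cytoplasmic synthetases are known targets of ATF4, the transcription factor of the amino acid response, which binds composite ATF4-C/EBP elements. Pontin is an AAA+ ATPase of chromatin remodeling and histone acetyltransferase complexes, and in the study its arginine methylation by CARM1 was followed during glucose starvation.

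Of the 38 synthetase genes, 21 (55.3%, 95% Wilson confidence interval 39.7% to 69.9%) had a methylated Pontin peak, against 17.1% of all protein-coding genes. A peak was found at 10 of 19 cytoplasmic enzymes (52.6%, interval 31.7% to 72.7%) and at 9 of 17 mitochondrial enzymes (52.9%, interval 31.0% to 73.8%). With peaks of at least 8-fold over input alone, these shares were 36.8% (7 of 19) and 17.6% (3 of 17), against 9.93% of all protein-coding genes. The difference between the compartments was not tested. Gars and Kars, the glycyl and lysyl enzymes of both compartments, each had a peak. Class II enzymes had a peak in 12 of 19 cases and class I enzymes in 8 of 18, and their intervals, 41.0% to 80.9% and 24.6% to 66.3%, overlapped. Eprs, which unites a class I and a class II enzyme in a single chain, had a peak and was left out of that count. Of the 8 genes of the multisynthetase complex, Dars, Eprs, Iars and Kars had a peak, while Lars, Mars, Qars and Rars had none. The intervals cover counting error only, the genes of a single library are not replicates, and no test of the list was made.

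**Figure D1:**
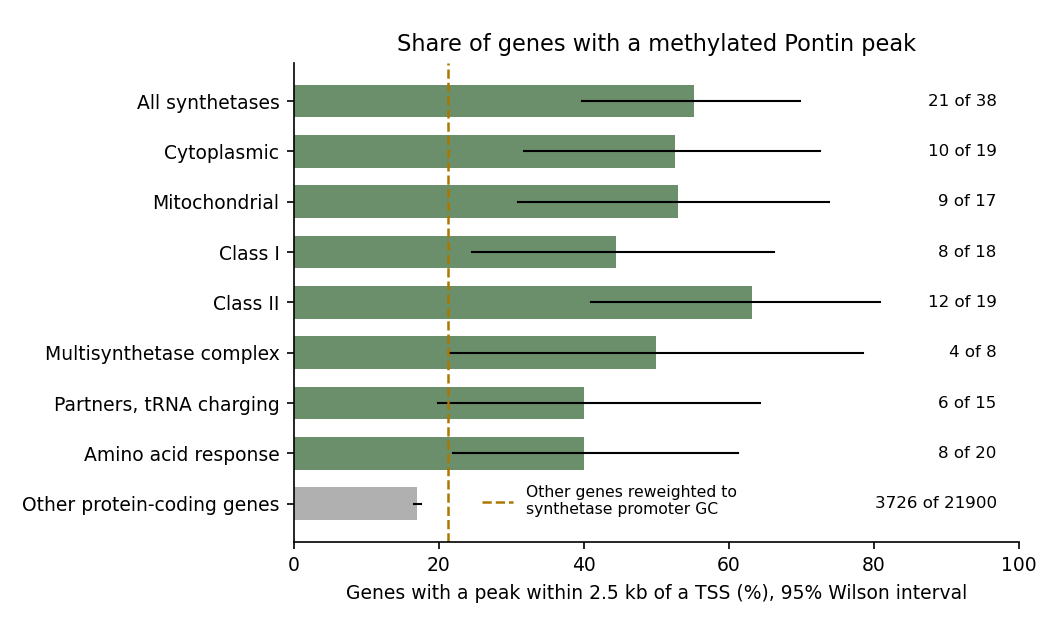
Bars show the percentage of genes with a methylated Pontin peak centre within 2.5 kb of a TSS in the starved ChIP library, with 95% Wilson intervals as black lines and the gene counts at the right. The bars of cytoplasmic (52.6%) and mitochondrial (52.9%) synthetases both extend to the right of the dashed line at 21.3%, the share of other genes reweighted to the promoter GC content of the synthetases.

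The share of genes with a peak moved with the GC content of the promoter, so the other genes were also weighted to the promoter GC of the synthetases. Promoter GC was measured in the 1 kb centred on the 5′ end of the gene and had a median of 56.3% at synthetase genes and 54.8% at the other 21900 protein-coding genes. Weighted in bins of 2 percentage points to the GC of the synthetases, 21.3% of the other genes had a peak, a share that would give 8.08 of 38 genes. The weighted shares were 20.2% for the GC of the cytoplasmic and 22.2% for the GC of the mitochondrial enzymes, which would give 3.83 and 3.77 genes. Synthetase genes also have more annotated TSSs, with a median of 6 against 3 for the other genes, and when the number of TSSs was weighted as well the share of other genes was 25.5%. By promoter GC, a peak was found at 6 of 8 synthetase genes from 50% to 55%, 7 of 16 from 55% to 60%, 7 of 7 from 60% to 65% and 1 of 3 from 65% to 70%, against 17.7%, 23.6%, 25.6% and 25% of the other genes in those ranges. The 4 synthetase genes below 50%, Aars, Lars, Qars and Tars2, had none, in a range where few of the other genes did either (4.40% from 40% to 45% and 9.91% from 45% to 50%). In the same list, 44 of 82 cytoplasmic ribosomal protein genes (53.7%), 35 of 75 mitochondrial ribosomal protein genes (46.7%) and 12 of 39 proteasome subunit genes (30.8%) had a peak, and these differences from the synthetases were not tested.

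**Figure D2:**
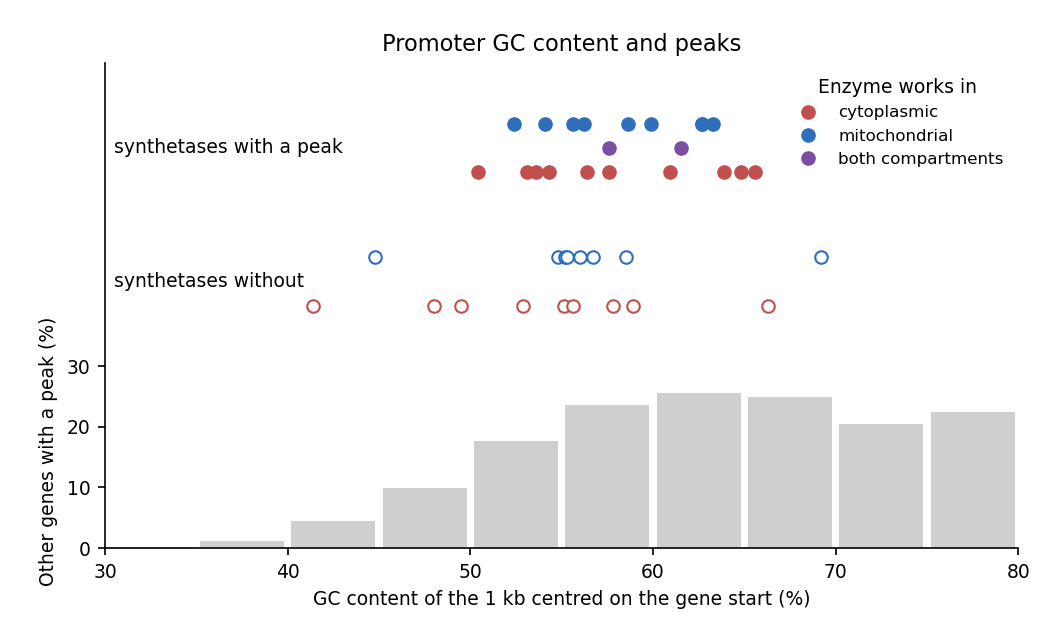
Grey bars show the percentage of other protein-coding genes with a peak for each 5 percentage points of GC content of the 1 kb centred on the gene start. The circles above place the 38 synthetase genes on the same GC axis, filled and in the upper rows when the gene has a peak, open and in the lower rows when it has none, and the height of the circles carries no value. From 50% to 70% GC, genes with and without a peak lie side by side (6 of 8, 7 of 16, 7 of 7 and 1 of 3 with a peak in successive bins), and the 4 genes below 50% have none, where the grey bars are at 4.40% and 9.91%.

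The peaks with the most tags were at the cytoplasmic enzymes Iars and Vars and at Gars, the enzyme of both compartments. Signal here means the tags in a peak for every 10000000 tags in the library, where a tag is a read position counted by the peak caller. The peak of Iars, the cytoplasmic isoleucyl-tRNA synthetase, had a signal of 26.0, equal to 54.0 tags (95% Poisson interval 40.6 to 70.4), and the peak of Vars, the valyl enzyme, had 24.6, equal to 51.1 tags (38 to 67.2). The peak of Gars had 23.8, equal to 49.4 tags (36.6 to 65.3). These intervals overlap, so the order of the 3 genes is not fixed by the counts. The signal of Iars exceeded that of 98.1% of the 3213 peaks within 2.5 kb of a protein-coding TSS. The central 200 bp of these 3 peaks, those with the highest signal, are shown 5′ to 3′ on the plus strand of GRCm38, which is the coding strand of all 3 genes, with the 10 bases at the peak centre in capitals.
Iars intron, chr13:49682401-49682600: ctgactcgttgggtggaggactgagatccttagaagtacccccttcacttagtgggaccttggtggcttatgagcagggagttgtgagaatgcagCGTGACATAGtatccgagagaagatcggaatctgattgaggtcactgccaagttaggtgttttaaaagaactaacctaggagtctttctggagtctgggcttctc
Vars, chr17:35001539-35001738: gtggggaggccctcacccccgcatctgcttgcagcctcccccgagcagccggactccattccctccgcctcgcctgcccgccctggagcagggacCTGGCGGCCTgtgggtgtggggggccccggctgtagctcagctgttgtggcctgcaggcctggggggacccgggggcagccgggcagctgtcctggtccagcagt
Gars, chr6:55038076-55038275: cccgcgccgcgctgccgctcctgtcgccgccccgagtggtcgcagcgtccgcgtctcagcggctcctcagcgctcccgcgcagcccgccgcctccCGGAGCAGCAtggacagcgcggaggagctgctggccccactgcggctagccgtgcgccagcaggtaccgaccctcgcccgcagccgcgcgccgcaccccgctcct
Their GC content differs widely, at 48.5% for Iars, 74.0% for Vars and 78.5% for Gars. The centre of the Iars peak was 401 bp downstream of the 5′ end of the gene, in an intron, and those of Vars and Gars were 652 bp and 169 bp downstream, in coding exons.

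The peaks were searched for the words of 10 transcription factors or families, and the windows around gene starts for the words of ATF4 with C/EBP, TGATGCAA, and of FOXO alone. Within 500 bp of the 5′ end the ATF4-C/EBP word occurred at 8 of the 19 cytoplasmic genes (42.1%), at none of the 17 mitochondrial genes, at neither Gars nor Kars, and at 2.45% of all protein-coding genes. This window was chosen after the words in the peaks had been seen. The 8 genes are Cars, Eprs, Farsb, Iars, Mars, Nars, Tars and Yars. Of these, 6 had a peak, all but Cars and Mars, beside 10 of all 19 cytoplasmic enzymes. The share with a peak among all protein-coding genes that hold the word was not computed, and no link of word and peak was tested. The word is printed in capitals with 10 bases on each side on the strand that reads TGATGCAA, for 7 of these genes and for Sars, where it lies inside the peak but 1004 bp from the 5′ end. Coordinates are those of the word in GRCm38.
Cars, chr7:143600056-143600063: ttccagaatcTGATGCAAccgcggcgcc
Eprs, chr1:185363270-185363277: acccacgcgcTGATGCAAcccgcgcggg
Farsb, chr1:78488582-78488589: cacgcgctgaTGATGCAAcggagccacc
Iars, chr13:49682137-49682144: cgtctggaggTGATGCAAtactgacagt
Mars, chr10:127311649-127311656: gagcccacgcTGATGCAAtcggaaccgg
Tars, chr15:11399666-11399673: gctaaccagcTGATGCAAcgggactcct
Yars, chr4:129189906-129189913: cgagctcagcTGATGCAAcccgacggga
Sars, chr3:108444201-108444208: tcgggtagtcTGATGCAAtaggtctgca
Of the 8 words printed, 3 lay inside a methylated Pontin peak, those of Farsb, Tars and Sars, at 131, 220 and 215 bp from the peak centre. The words of Iars, Yars and Eprs lay outside the peak of the gene, at 360, 355 and 702 bp from its centre. Over whole peaks, 3 of 20 synthetase peaks held the word, against 1.59% of the peaks near protein-coding TSSs, and none of the 20 held it in the central 200 bp. When the sixth base was left free, as TGATGNAA, 10 synthetase genes held the word within 500 bp of the start, of which 9 were cytoplasmic and the other was Gars, against 10.9% of all protein-coding genes.

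The word GTAAACA, used for FOXO factors because the study followed FOXO3a, was not found in the central 200 bp of any synthetase peak, where it occurred in 1.74% of the peaks near protein-coding TSSs. Over the whole peak it was found at 2 mitochondrial enzymes, Fars2 and Iars2, against 4.39% of those peaks. Within 500 bp of the gene start it was found at 3 of the 38 synthetase genes (7.89%), against 9.54% of all protein-coding genes. These were the mitochondrial enzymes Iars2, Vars2 and Yars2. No cytoplasmic enzyme held it there, and the difference between the compartments was not tested. The stretches of the peaks that hold it are shown on the coding strand of each gene without annotated untranslated exons, with searched words in capitals. In Fars2 the word reads in reverse complement, and in Iars2 the capitals further 5′ are the NF-Y word CCAATCA in reverse complement.
Fars2, plus strand, chr13:36118064-36118190: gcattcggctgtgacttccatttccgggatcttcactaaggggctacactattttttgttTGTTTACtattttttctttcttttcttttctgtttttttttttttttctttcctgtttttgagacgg
Iars2, minus strand, chr1:185329437-185329557: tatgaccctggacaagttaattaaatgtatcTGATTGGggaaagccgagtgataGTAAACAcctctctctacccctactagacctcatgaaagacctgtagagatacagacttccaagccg
The FOXO word was 157 bp from the peak centre in Fars2 and 183 bp from it in Iars2, where it lay upstream of the gene. The other words searched were GCGGGAA for E2F, TCACGTG for TFEB, TGACGTCA for CREB, CCGGAAGT for ETS factors, CGCATGCGC for NRF1, ATGGCGGC for YY1, CCAATCA for NF-Y and GGGGCGGGG for SP factors. Over the whole peak, the E2F word was in 2 of the 20 synthetase peaks, against 11.3% of the peaks near protein-coding TSSs, and the TFEB word in 1, against 6.32%. The ETS and NF-Y words were in 2 each, against 7.63% and 4.98%, and the NRF1 word in 1, against 2.46%. In the central 200 bp only 2 synthetase peaks held any of the 10 words, YY1 at Fars2 and SP at Iars2. The shares in the peaks near protein-coding TSSs were 2.89% for the YY1 word and 2.96% for the SP word. All words were searched on both strands. Apart from TGATGNAA they were fixed letters, so a site that differs by a base was not counted.

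**Figure D3:**
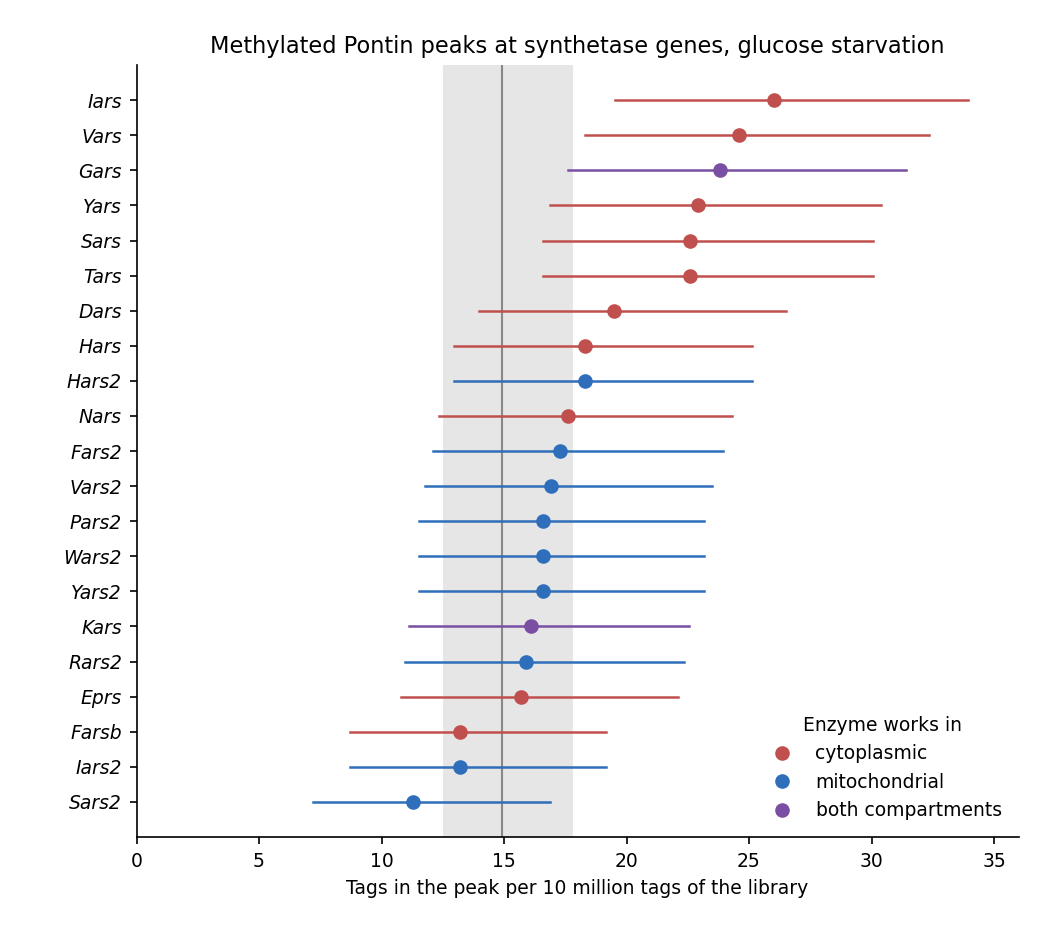
Each point is the tag count of the peak at a synthetase gene per 10000000 tags of the library, with its 95% Poisson interval for counting error, coloured by the compartment of the enzyme. The grey band spans the interquartile range, 12.5 to 17.8, of the 3213 peaks near protein-coding TSSs and the line marks their median of 14.9; 6 genes, from Iars to Tars, lie above 22. Hars and Hars2 share a single peak.

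The 21 genes had 20 distinct peaks, since Hars and Hars2 share one, and no gene had more than 1. Their signal ranged from 11.3 to 26.0 with a median of 17.1, against 14.9 for the 3213 peaks near protein-coding TSSs. Of the 20 peaks, 17 (85%) were above that median and 8 (40%) above the third quartile of 17.8, which 23.7% of the peaks near protein-coding TSSs exceeded. The peaks of the cytoplasmic enzymes had a median of 21.1 (range 13.2 to 26.0), and those of the mitochondrial enzymes a median of 16.6 (range 11.3 to 18.3). Above the third quartile were 7 of the 10 cytoplasmic peaks and 1 of the 9 mitochondrial peaks, the one that Hars2 shares with Hars. The groups overlapped, and the difference was not tested. The median peak signal also differed between chromosomes, from 10.4 on the X chromosome to 18.5 on chromosome 8. Divided by the median of its own chromosome, the signal had a median of 1.37 at cytoplasmic and 1.13 at mitochondrial enzymes, against 1.03 for the peaks near protein-coding TSSs.

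After Iars, Vars and Gars, the next peaks were those of the cytoplasmic enzymes Yars (tyrosine), with a signal of 22.9 or 47.6 tags, Sars (serine) and Tars (threonine), both with 22.6 or 46.9 tags. On chromosome 15, which has a high median of 18.1, the signal of Tars exceeded 74.0% of the peaks, less than the 93.7% among all peaks near protein-coding TSSs. Dars, the aspartyl enzyme, had 19.5 and the highest fold over the surrounding 10 kb of all synthetase peaks, 7.82 by the authors' calculation. Hars, the histidyl enzyme, had 18.3 and Nars, the asparaginyl enzyme, 17.6. Eprs had 15.7, and Farsb, the beta subunit of the phenylalanyl enzyme, had 13.2, the lowest of the cytoplasmic peaks. Kars had 16.1, which exceeded 61.4% of the peaks near protein-coding TSSs but 33.5% of the peaks on its chromosome, chromosome 8.

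The peaks of the mitochondrial enzymes ran from a signal of 11.3 to 18.3, the upper value being that of the peak Hars2 shares with Hars. Fars2 had 17.3, Vars2 had 16.9, and Pars2, Wars2 and Yars2 each had 16.6, equal to 34.5 tags (95% Poisson interval 23.9 to 48.1). Rars2 had 15.9 and Iars2 13.2. Sars2, the mitochondrial seryl enzyme, had the lowest signal of all, 11.3 or 23.5 tags (15.0 to 35.1), above 12.8% of the peaks near protein-coding TSSs. Its interval overlaps that of Fars2, 25.2 to 49.8 tags, so these 2 peaks are not separated by their counts.

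The enrichment over input that the authors computed lay between 4.85-fold at Vars2 and 67.3-fold at Iars across the synthetase peaks, with a median of 8.30, against 9.10 for the peaks near protein-coding TSSs. These folds rest on very few input tags. The input tags implied by the fold were 0.5 at Iars and Yars2, the lowest value in the list, and about 1 at Yars, Dars, Hars, Kars and Eprs, so 7 of the 20 peaks had at most about 1 input tag. The highest folds, those of Iars and Yars2, thus have an input close to 0 as their denominator. Folds under 8 were found at 9 of the 20 peaks (45%), against 42.0% of the peaks near protein-coding TSSs. They comprised 3 of the 10 cytoplasmic peaks, those of Tars, Nars and Sars, and 6 of the 9 mitochondrial peaks, those of Fars2, Iars2, Wars2, Rars2, Sars2 and Vars2. With peaks of at least 8-fold alone, 12 synthetase genes (31.6%) had a peak, against 9.93% of all protein-coding genes, and these were 7 cytoplasmic, 3 mitochondrial and both enzymes of both compartments. When only the peaks above the median score were kept, 17 synthetase genes (44.7%) had a peak, against 9.57% of all protein-coding genes. The authors' Poisson p-value against the input ranged from 8.13e-48 at Iars to 3.4e-06 at Sars2, and all peaks had passed the limit of 0.0001 by construction of the list.

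**Figure D4:**
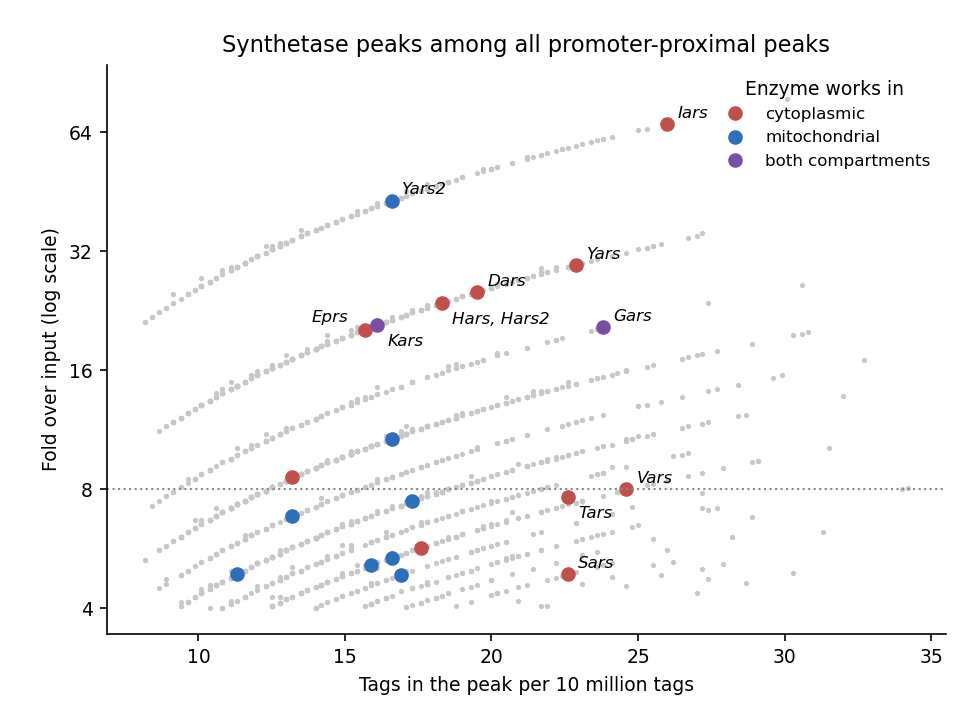
Each grey dot is a peak within 2.5 kb of a protein-coding TSS, with its tags per 10000000 tags on the x axis and its fold over input on a log y axis; coloured circles are the 20 peaks at synthetase genes. The dots form bands because few input tags underlie each fold, and the upper band, with Iars and Yars2, has 0.5 input tags. The dotted line marks 8-fold.

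Most synthetase peaks were centred downstream of the 5′ end of the gene. Of the 21 pairs of a gene and its peak, 16 (76.2%) had the peak centre downstream of the 5′ end, against 55.3% of 3814 such pairs over all protein-coding genes. The 5′ end is the outermost annotated start, and synthetase genes have more TSSs, with a median of 6 against 3. The Vars peak, 652 bp downstream of the 5′ end, was 322 bp from its nearest TSS. How far the number of TSSs moves these positions was not tested. The median position was 169 bp downstream, against 109 bp for all pairs. Within 500 bp of the 5′ end lay 17 of the 21 centres (81.0%), against 64.8% of all pairs. Of the 20 distinct peaks, 7 had their centre in a coding exon of the synthetase gene and 5 in an intron. The peaks of Eprs, Kars, Pars2, Rars2 and Wars2 were centred upstream of the gene, by 472, 242, 362, 390 and 185 bp. The centres at Eprs and Kars lay in exons of other annotated genes, 4930532G15Rik and Terf2ip, so these peaks may belong to either gene. The peak farthest from a TSS but still counted was that of Sars, at 1153 bp, and the nearest peak not counted was that of Farsa, at 4840 bp, so no gene lay close to the limit of 2.5 kb.

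**Figure D5:**
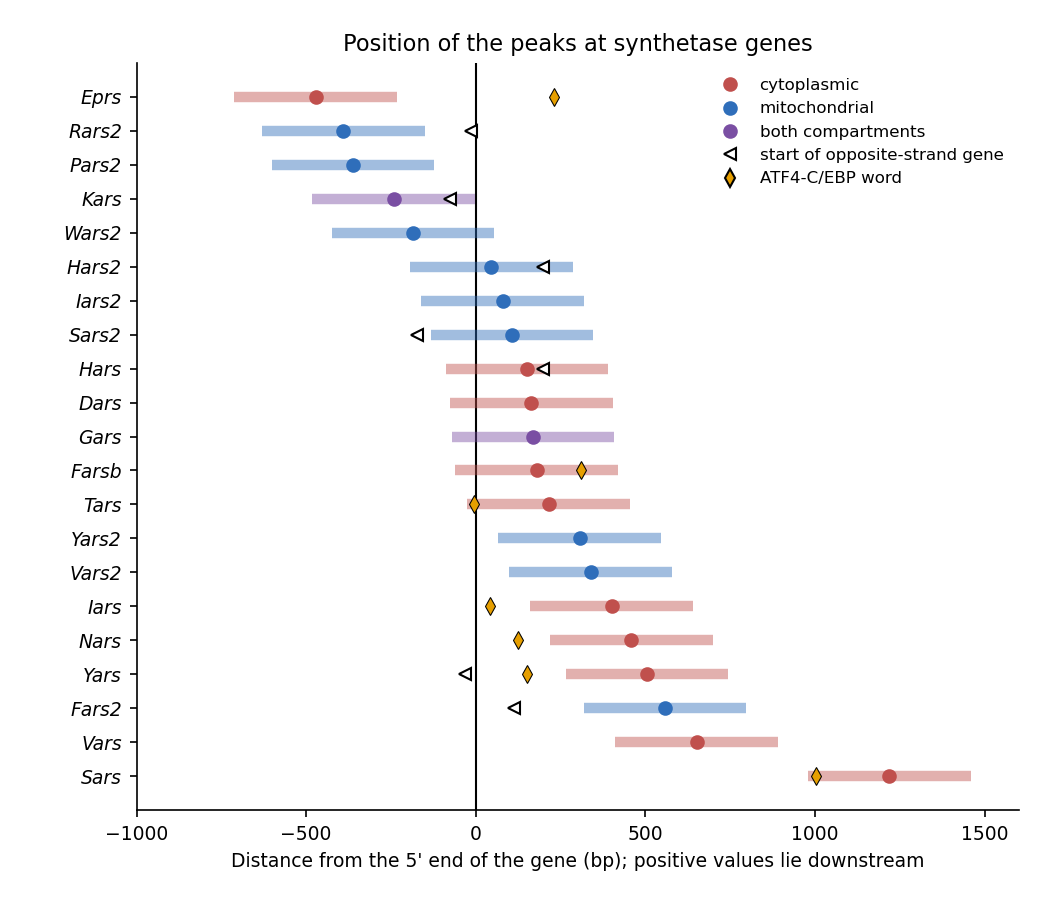
For each of the 21 synthetase genes with a peak, the circle marks the peak centre and the bar the width of the peak relative to the 5′ end of the gene at 0, with positive values downstream. Triangles mark the start of a gene on the opposite strand and diamonds the ATF4-C/EBP word; 16 of the 21 centres lie to the right of 0, and the diamonds of Farsb, Tars and Sars fall within the bars.

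Several synthetase genes share their promoter with another gene, so a peak cannot be assigned to one of them. The 5′ end of a protein-coding gene on the opposite strand lay within 1 kb for 10 of the 38 synthetase genes (26.3%), against 10.9% of all protein-coding genes. Of these 10 genes 7 had a peak, and of the other 28 synthetase genes 14 did (50%), against 38% and 14.5% over all protein-coding genes. Hars and Hars2, the histidyl enzymes of the cytoplasm and of the mitochondria, overlap head to head on chromosome 18. The centre of their common peak, from 36782814 to 36783294, was 66 bp from a TSS of Hars and 46 bp from a TSS of Hars2. The peak of Sars2 was 91 bp from its TSS and 279 bp from that of Mrps12, a protein of the small mitochondrial ribosomal subunit. The peak of Fars2 was 90 bp from its TSS and 444 bp from that of Lyrm4, a factor of iron-sulfur cluster assembly, and the peak of Yars was 363 bp from its TSS and 538 bp from that of S100pbp. In contrast, the centres of the peaks of Kars and Rars2 were nearer to the partner, at 163 bp from Terf2ip, a telomere protein gene, and at 326 bp from Orc3, a gene of the origin recognition complex. In all, 7 of the 20 peaks were within 2.5 kb of a TSS of another protein-coding gene, against 17.8% of the peaks near protein-coding TSSs that reach at least 2 genes.

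For each mitochondrial enzyme the cytoplasmic enzyme of the same amino acid was looked up. Both had a peak in 7 of 17 cases, namely Fars2 with Farsb, Hars2 with Hars, Iars2 with Iars, Pars2 with Eprs, Sars2 with Sars, Vars2 with Vars, and Yars2 with Yars. In 4 cases, those of alanine, cysteine, leucine and methionine, neither had one. The cytoplasmic enzyme alone had a peak in 4 cases, among them Eprs against Ears2, Nars against Nars2 and Tars against Tars2, and the mitochondrial enzyme alone in 2 (Rars2 and Wars2). Eprs enters 2 of the 17 cases and Hars and Hars2 have a common peak, so the cases are not independent. The phenylalanine case was counted through Farsb and the threonine case through Tars, while Farsa and Tarsl2 had no peak. Some joint cases arise from the shares of the 2 sides alone, which were 52.9% for the mitochondrial enzymes and higher than 52.6% for the cytoplasmic side. That side had a peak in the 7 joint cases and in 4 more of the 17, a larger share than among the 19 cytoplasmic genes. No excess of joint cases was tested.

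Of the 17 synthetase genes without a peak, 5 had their nearest peak within 50 kb and 12 did not. The share over all protein-coding genes without a peak was not computed, so these distances are not a trait of the synthetases. Farsa, the alpha subunit of the phenylalanyl enzyme, was 4.84 kb from the nearest peak, Cars 15.5 kb, Cars2 19.4 kb, Aars 35.1 kb and Qars 47.6 kb. The other 12 had no peak within 50 kb, from Rars at 50.4 kb to Ears2 at 903 kb. Among them were Aars2, Ears2, Lars, Lars2, Mars, Mars2, Nars2, Rars, Tars2, Tarsl2 and Wars. A region below the tag threshold of the authors, or less than 4-fold above the input or the surrounding 10 kb, does not enter the list, so these genes are without a called peak and a weaker signal there cannot be seen.

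Genes that work beside the synthetases were looked up in a list of 15, of which 6 had a peak (40%, 95% Wilson interval 19.8% to 64.3%) against 17.1% of all protein-coding genes. The promoter GC of the list had a median of 55.7% and quartiles of 52.6% and 57.5%. Of the other genes, 9.91% had a peak from 45% to 50%, 17.7% from 50% to 55% and 23.6% from 55% to 60%. They were not weighted to the GC of this list. The peak of Aimp1, a scaffold of the multisynthetase complex, had a signal of 16.6, while the scaffolds Aimp2 and Eef1e1 had none. Mitochondria lack a glutaminyl-tRNA synthetase and instead convert glutamate on the tRNA with an amidotransferase, whose subunits Gatb and Gatc had peaks of 17.8 and 15.4, whereas the subunit gene Qrsl1 had none. The others with a peak were Sepsecs, of selenocysteine synthesis, with 12.3, Aarsd1, an alanyl-tRNA editing protein, with 12.5, and Tufm, the mitochondrial elongation factor, with 11.3. The genes without a peak were Aimp2, Eef1e1, Qrsl1, Mtfmt, Pstk, Prorsd1, Dtd1, Eef1a1 and Trnt1.

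Of 20 genes of the amino acid response and of amino acid supply, 8 had a peak (40%, interval 21.9% to 61.3%), against the same 17.1% of all protein-coding genes. Their promoter GC had a median of 59.35% and quartiles of 52.2% and 61.6%. Of the other genes, 17.7% had a peak from 50% to 55%, 23.6% from 55% to 60% and 25.6% from 60% to 65%. The other genes were not weighted to the GC of this list, so the 40% has no share of like GC beside it. The enzymes of serine and glycine synthesis Shmt2, Psat1 and Psph had signals of 27.9, 22.4 and 16.9, and Asns, the asparagine synthetase, had 20.7. The peak of Shmt2 held the ATF4-C/EBP, FOXO and E2F words. Over the whole peak these occurred in 1.59%, 4.39% and 11.3% of the peaks near protein-coding TSSs. The amino acid transporter genes Slc38a2 and Slc3a2 had 18.5 and 15.7, Ppp1r15a, a subunit of the phosphatase that acts on eIF2 alpha, had 16.9, and Eif2s1, which encodes eIF2 alpha itself, had 14.9. The peak of Eif2s1, like that of Sepsecs above, held the NRF1 word, which was in 2.46% of the peaks near protein-coding TSSs. Atf4 itself had no peak, and its nearest was 8659 bp away. No peak was found within 2.5 kb at Ddit3, Trib3, Chac1, Sesn2, Eif2ak4, Atf5, Cebpb, Phgdh, Slc7a5, Slc7a11 or Nupr1. The nearest peak was 3945 bp away at Sesn2, inside the alternative limit of 5 kb, and 6209 bp away at Trib3.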

How the data were processed

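ChIP-seq of methylated Pontin was analysed from the peak list of 1 library, that of MEFs under glucose starvation. The authors aligned paired-end reads to GRCm38 (mm10) with Bowtie2 and called peaks against an input with HOMER 4.7.2, named in the study as the control input; the file header does not tie it to one of the labelled inputs. The deposited signal gives the tags in each peak, scaled from the 20765512 tags of the library to 10000000, and also scaled to the input depth. The deposited folds over input and over the surrounding 10 kb are ratios from the authors, each with the authors' Poisson p-value. The deposited score served to take the upper part of the list, and a deposited fraction that describes peak shape was not used. Peaks had passed a tag threshold of 18 (false discovery rate 0.001), and at least 4-fold with p at most 0.0001 over input and surroundings. In the file, 2 further columns of values were not used.

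Distances ran from the peak centre to the TSSs of GENCODE vM21, on the same build, and sequences came from the GRCm38 assembly of RefSeq. Members, lists and words were chosen with earlier results of these data known. All synthetases with a peak were named with their values, and the other synthetases by distance, except an item that is not reported here. Sequences shown by rule are the 3 peaks of highest signal and the word-holding stretches of Sars, Tars and Fars2. Farsb, Iars2 and the words near gene starts were added after their values were seen. Each peak has an exact Poisson interval and each share a 95% Wilson interval, both for counting error alone, and no test was made since there is 1 library and no replicate. Shares of other genes were weighted to the promoter GC bins of the synthetases. Alternatives were other distances, TSS sets, fold and score limits, GC windows and word windows. The procedures were tested on simulated data. Tables were handled with pandas 2.3.3 and NumPy 2.4.6 under Python 3.11.15, intervals came from SciPy 1.17.1, and matplotlib 3.10.9 drew the plots.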

Additional observations from a re-analysis of the deposited data

How the results depend on the processing

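No paired analysis was possible because a single list of peaks, from 1 library, was analysed, and no replicate could be left out. The share of synthetase genes with a peak, 55.3%, was 31.6% with peaks of at least 8-fold over input, and that of mitochondrial enzymes fell from 52.9% to 17.6%; fewer peaks enter there by construction. Under the other alternatives both stayed within their Wilson intervals, as did the share of cytoplasmic enzymes under all 8 alternatives. The GC-weighted share of other genes, 21.3%, was 20.3% at 1 kb, 22.6% at 5 kb, 19.9% from the 5′ end alone, 20.6% with protein-coding transcripts alone, 12.3% with peaks of at least 8-fold and 11.9% with the peaks above the median score. It was 20.1% with GC from 250 bp before to 50 bp after the start, 25.5% with the number of TSSs and 23.5% with an opposite-strand partner, the last of which was chosen after seeing the data. The cause of these shifts was not tested. In the whole peak in place of the central 200 bp, the words were found in 3 peaks (ATF4-C/EBP), 2 peaks each (FOXO, E2F, ETS and NF-Y) and 1 peak each (TFEB and NRF1), all 0 in the centre, because the window is wider, and TGATGNAA was in the centre of 1 peak. The median signal, 17.1, was 16.9 at 1 kb, 17.3 with the highest peak of each gene and 18.3 with peaks of at least 8-fold, and 22.1 in tags scaled to the input depth, which is another unit. A median synthetase peak had 35.5 tags, and regions below the tag threshold were not seen.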
